A study of Homo sapiens with 9 samples.

Results

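The epidermal growth factor receptor EGFR, its relative HER3 (gene symbol ERBB3), 6 ligands of EGFR (TGFA, HBEGF, AREG, EREG, BTC and EGF) and ERRFI1, an inhibitor that cells make in response to EGFR signaling, were followed in PC3 xenografts. These 9 genes were chosen by symbol from the 16008 genes listed in both deposited tables, with earlier results of these data known. All 9 were listed once and passed the filter on low counts in every comparison. RNA-Seq had been performed on 9 xenografts of PC3, a human prostate cancer cell line, grown under the skin of male NSG mice, which lack T, B and NK cells but keep macrophages and other host stroma. Per the series record, the mice were 11 weeks old at injection, and treatment began at a tumor volume of 90 mm3 with weekly injections for 5 cycles. The study's methods give these values for a separate experiment with a higher dose of T-DXd. For the 5 mg/kg experiment, whose tumors they send to RNA-Seq, the methods give another age, volume and number of cycles. Of the libraries, 3 came from mice given vehicle (PBS), 3 are titled P-DXd and 3 are titled T-DXd, each conjugate at 5 mg/kg, and the tumors were taken at the end of the experiment. P-DXd (patritumab deruxtecan) is an antibody against HER3, and T-DXd (trastuzumab deruxtecan) an antibody against HER2, the product of ERBB2. Both carry deruxtecan, which inhibits topoisomerase I. For all 6 treated libraries the title and the treatment field name opposite conjugates. Groups below go by their titles, P-DXd-titled or T-DXd-titled, and which of them received the antibody against HER3 is not known here.

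EGFR, HER2, HER3 and HER4 form the ErbB family of receptors, which pair with each other at the cell surface. TGFA, AREG and EGF bind EGFR, whereas HBEGF, BTC and EREG bind both EGFR and HER4. HER3 binds neuregulins, has little kinase activity of its own and signals by pairing with another member, and HER2 has no known ligand. The ligands are made as membrane proteins that proteases such as ADAM17 cut free. ERK signaling downstream of the receptors induces several of the ligands and also ERRFI1 (MIG6), which binds the EGFR kinase domain and blocks it.

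Of the ligand genes, EPGN (epigen, a further EGFR ligand), EREG, AREG and BTC lie near each other on chromosome 4, and EGF lies on the same chromosome much farther away. In these tumors EPGN, EREG and AREG were lower after treatment and BTC was higher, so the sequences before their start sites are shown for comparison. These are the 250 bases upstream of each start site, 5′ to 3′ on the gene's strand, from RefSeq on GRCh38.p14. Capitals mark a TATA box (searched as TATAAA) and, in AREG, a cAMP response element (TGACGTCA, the site bound by CREB and ATF factors).
AREG (chr4:74444886-74445135, plus strand): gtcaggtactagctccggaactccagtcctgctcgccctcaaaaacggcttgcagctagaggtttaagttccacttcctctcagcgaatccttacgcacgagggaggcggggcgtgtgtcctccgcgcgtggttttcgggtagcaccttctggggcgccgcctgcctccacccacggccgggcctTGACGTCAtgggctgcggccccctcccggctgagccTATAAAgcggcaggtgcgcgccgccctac
EREG (chr4:74364895-74365144, plus strand): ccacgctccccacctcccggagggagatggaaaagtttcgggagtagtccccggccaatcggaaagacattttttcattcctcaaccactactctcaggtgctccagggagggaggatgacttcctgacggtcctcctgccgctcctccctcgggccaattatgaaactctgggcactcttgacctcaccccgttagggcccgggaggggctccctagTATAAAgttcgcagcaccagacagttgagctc
EPGN (chr4:74308220-74308469, plus strand): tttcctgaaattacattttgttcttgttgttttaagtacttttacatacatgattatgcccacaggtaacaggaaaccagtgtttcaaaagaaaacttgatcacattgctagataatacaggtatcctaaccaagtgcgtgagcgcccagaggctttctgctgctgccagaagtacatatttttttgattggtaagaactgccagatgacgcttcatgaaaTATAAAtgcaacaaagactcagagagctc
BTC (chr4:74794524-74794773, minus strand): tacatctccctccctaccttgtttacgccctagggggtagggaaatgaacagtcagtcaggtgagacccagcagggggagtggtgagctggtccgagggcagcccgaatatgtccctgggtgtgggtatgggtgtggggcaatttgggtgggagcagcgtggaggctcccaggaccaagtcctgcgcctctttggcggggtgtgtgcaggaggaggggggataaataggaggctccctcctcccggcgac

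The TATA box began 29 bases before the start of AREG, 32 before that of EREG and 29 before that of EPGN. The letters TATAAA occurred on either strand in 10.7% of 35116 human promoter entries of the same length. The cAMP response element of AREG began at position -65, and 1.65% of the entries held these letters. BTC held none of TATAAA, TGACGTCA and TGANTCA, the last being an AP-1 type element found in 6.57% of the entries. HBEGF, TGFA (both entries), ERRFI1 and the first entry of EGFR also held none of the 3, and were 64.0% to 76.4% G and C. EGF held an AP-1 type element at position -17. The second EGFR entry, which starts farther downstream, held a pair each of AP-1 type and TATA letters. Of the 9 genes, 8 had a promoter entry, and ERBB3 did not. Only these exact letters were searched. Variants such as ataaata near the start of BTC and tatatata near that of ERRFI1 were not counted. A gene without TATAAA is thus not shown to lack a TATA box. The motifs are a description of letters, and none was tested for binding.

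Total counts ranged from 90761763 to 125538606 in PBS, from 54481702 to 83721486 in the P-DXd-titled and from 66954114 to 73655752 in the T-DXd-titled libraries, so each PBS library was the deeper. PBS replicate 1 stood apart from the other PBS libraries: the chi-square statistic per gene was 316 and 388 between it and the others, and 37.5 between those. The summed level of 7 epithelial markers was 1918 to 2687 CPM (counts scaled to a common library size after TMM adjustment) in PBS, 3815 to 4536 CPM in the P-DXd-titled and 4043 to 4527 CPM in the T-DXd-titled libraries, with all 7 listed. KLK2 and KLK3, defining genes of luminal prostate cells, were not listed. The sum of 10 fibroblast markers was 1058 to 2062 CPM in PBS (highest in replicate 1), 1226 to 2128 CPM and 2066 to 2226 CPM. The 7 listed of 12 macrophage markers summed to 4.79 to 6.64 CPM, 12.8 to 18.8 CPM and 19.6 to 24.7 CPM, with CD163, MRC1, C1QA, C1QC and ADGRE1 not listed. For the 6 listed of 7 endothelial markers the sums were 6.12 to 11.5 CPM, 7.42 to 12.1 CPM and 10.6 to 11.1 CPM, with PECAM1 not listed. The 8 skeletal muscle markers summed to 0.899 to 40.4 CPM, 66.1 to 3688 CPM (highest in P-DXd-titled replicate 2) and 179.5 to 229 CPM. Their part in the results below was not tested. In bulk tumor tissue, fewer cells that express a gene and less RNA per cell cannot be told apart, nor can human reads and mouse reads that align to human genes.

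One question was how the pathway's transcripts differed between treated tumors and vehicle. The word called is used for genes with an adjusted p of 0.05 or less in edgeR's quasi-likelihood test that also differed at least 1.5-fold. In P-DXd-titled compared with PBS xenografts, 6 of the 9 genes were called, beside 25.0% of all 14945 genes tested. TGFA, HBEGF, AREG, EREG and ERRFI1 fell, beside 13.8% of all genes, and BTC rose, beside 11.2%. In T-DXd-titled xenografts 6 genes were called, the same in each direction, beside 28.6% of 14915 genes (15.5% lower and 13.1% higher). With all 6 treated libraries set against PBS, a comparison that does not depend on which label is right, 7 were called beside 32.2% of 15070 genes, and ERBB3 was the addition. Of these, 5 were lower (17.1% of all genes) and 2 were higher (15.2%). All 3 comparisons share the PBS libraries. Because the 9 genes were chosen with earlier results of these data known, their counts beside all genes are a description and no test of the set. In the comparisons of a single conjugate the calls of AREG, EREG, HBEGF and BTC depended on which library was left out: without P-DXd-titled replicate 1 or 3, or with T-DXd-titled replicate 3 left out, 2 genes (TGFA and ERRFI1) were called, and 3 were with P-DXd-titled replicate 2 left out. With all treated libraries against PBS, 6 or 7 were called whichever library was left out. The median log2 fold change of the 9 genes was -0.63, -0.77 and -0.71 in these comparisons, and that of all genes tested was -0.0053, -0.019 and -0.014.

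Groups did not overlap for all 9 genes in P-DXd-titled against PBS, beside 55.2% of all genes. In T-DXd-titled against PBS they did not overlap for 8 of 9, beside 61.3%, and in the comparison of 6 treated with 3 PBS libraries for 8 of 9, beside 50.5%. EGF was the exception in both. The plot of levels by library shows the 9 genes in each tumor.

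**Figure D1:**
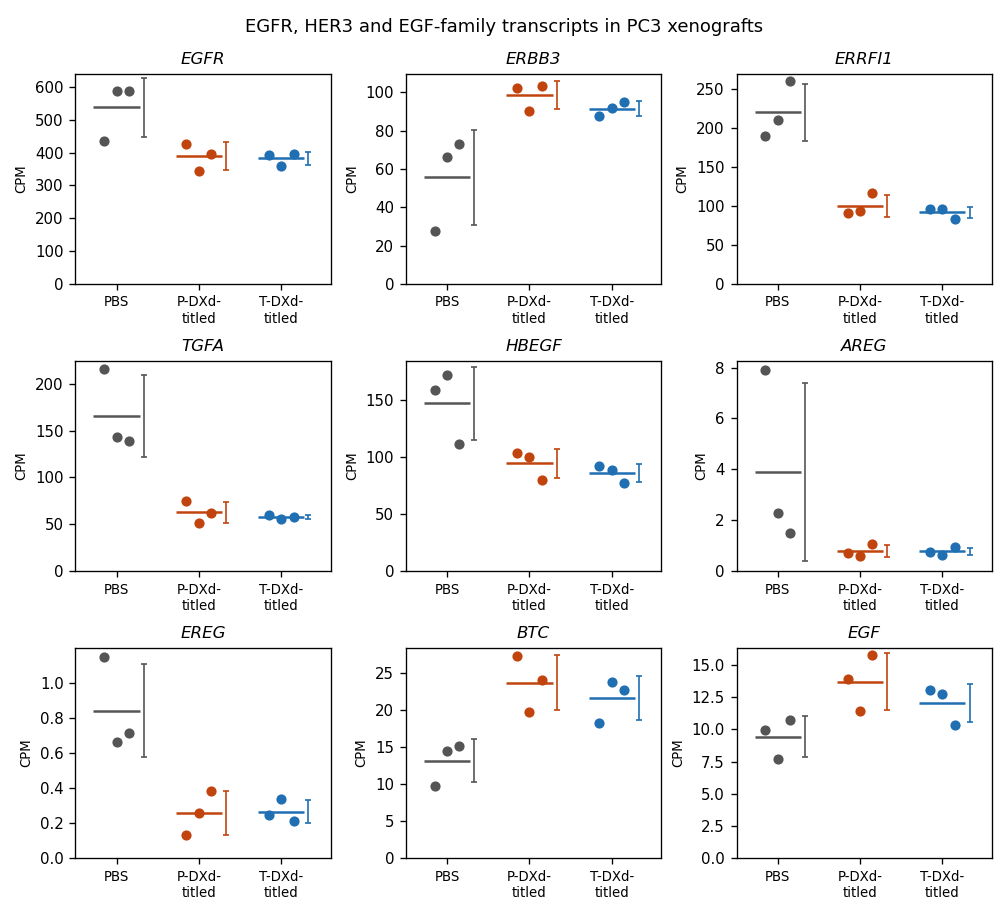
Levels of the 9 genes in CPM (vertical axes from 0, a scale for each gene) in 3 PBS, 3 P-DXd-titled and 3 T-DXd-titled tumors; points are libraries in the order of replicates 1 to 3, horizontal lines are means and bars to the right are 1 SD. TGFA, HBEGF, AREG, EREG and ERRFI1 are lower in all 6 treated libraries than in all 3 PBS libraries, BTC and ERBB3 are higher, and the AREG point at 7.89 CPM is PBS replicate 1.

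Among the receptors, EGFR (chromosome 7, 55086714 to 55324313, as the tables list it) was the more abundant of the pair followed here, at 434, 589 and 589 CPM in PBS replicates 1 to 3. It was 427, 345 and 397 CPM in the P-DXd-titled and 392, 360.5 and 396 CPM in the T-DXd-titled replicates. All 6 treated libraries were below all 3 PBS libraries, with P-DXd-titled replicate 1 just below PBS replicate 1. Means were 538 ± 89.2 CPM (SD, n = 3) in PBS, 390 ± 41.7 CPM in the P-DXd-titled and 383 ± 19.4 CPM in the T-DXd-titled xenografts. The log2 fold change was -0.45 (SE 0.15, adjusted p 0.0564) in P-DXd-titled, -0.49 (SE 0.13, adjusted p 0.0258) in T-DXd-titled and -0.48 (SE 0.10, adjusted p 0.00303) in both together. EGFR was therefore not called in any of the 3, because the change stayed under 1.5-fold or, for P-DXd-titled, also missed the p threshold. Without PBS replicate 1, EGFR was called lower in each, at -0.59, -0.62 and -0.60.

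ERBB3 (chromosome 12, 56473641 to 56497289), which encodes the HER3 receptor that P-DXd binds, went the other way. It was 27.4, 66.3 and 73.1 CPM in PBS, 102, 90.2 and 103 CPM in the P-DXd-titled and 87.4, 92.0 and 95.01 CPM in the T-DXd-titled replicates. Every treated library was above every PBS library, and PBS replicate 1 was far below the other PBS libraries. Means were 55.6 ± 24.7 CPM (SD, n = 3), 98.6 ± 7.28 CPM and 91.5 ± 3.81 CPM. ERBB3 passed the test only with both conjugates together, at a log2 fold change of 0.77 (SE 0.24, adjusted p 0.0192), and not in P-DXd-titled (0.84, adjusted p 0.0860) or T-DXd-titled xenografts alone (0.72, adjusted p 0.117). Without PBS replicate 1 the value for both was 0.45, with an adjusted p of 0.000417 but under the fold minimum, so the call rests on that library. With the same library left out it was 0.51 (adjusted p 0.00313) in P-DXd-titled and 0.39 (adjusted p 0.000304) in T-DXd-titled tumors, also under the fold minimum. DESeq2 called ERBB3 in P-DXd-titled xenografts (0.84, adjusted p 0.0302).

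Of the ligands, TGFA (chromosome 2, 70674412 to 70781325), the transforming growth factor alpha that many carcinomas make for their own EGFR, had the lowest adjusted p in each comparison with PBS. Its levels were 216, 143 and 139 CPM in PBS, 74.4, 51.7 and 61.9 CPM in the P-DXd-titled and 60.3, 56.0 and 58.1 CPM in the T-DXd-titled replicates. The lowest PBS library was far above the highest treated library. From 166 ± 43.7 CPM (SD, n = 3) in PBS, the mean went to 62.7 ± 11.4 CPM and 58.1 ± 2.16 CPM. TGFA fell in the P-DXd-titled group (log2 fold change -1.39, SE 0.21, adjusted p 0.00471), in the T-DXd-titled group (-1.51, SE 0.18, adjusted p 0.00148) and in both together (-1.46, SE 0.15, adjusted p 2.41e-05). Over all alternatives and left-out libraries of these 3 comparisons it stayed called.

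HBEGF (chromosome 5, 139712428 to 139726216) encodes heparin-binding EGF-like growth factor. It was 159, 172 and 111 CPM in PBS, 103, 100.1 and 79.9 CPM in the P-DXd-titled and 92.3, 88.8 and 77.0 CPM in the T-DXd-titled replicates. PBS replicate 3 was close to the highest treated library but above it. HBEGF fell by 0.63 on the log2 scale in P-DXd-titled (SE 0.18, adjusted p 0.0363), by 0.77 in T-DXd-titled (SE 0.17, adjusted p 0.0117) and by 0.71 in both (SE 0.14, adjusted p 0.00137). These values lie near the fold minimum of 1.5: without PBS replicate 2 the change for both was -0.58 and no longer called.

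AREG (amphiregulin, chromosome 4, 75310851 to 75320726) was low in the deposited counts and had, over all libraries, the largest fold change of the 9 genes. It was 7.89, 2.29 and 1.495 CPM in PBS, 0.727, 0.587 and 1.05 CPM in the P-DXd-titled and 0.758, 0.646 and 0.929 CPM in the T-DXd-titled replicates. These levels rest on 695, 294 and 168 counts in PBS and on 32 to 69 counts in treated libraries. All PBS libraries were above all treated libraries, but PBS replicate 1 was 4.17 times the mean of the other PBS libraries. The log2 fold change was -2.28 (SE 0.65, adjusted p 0.0324) in P-DXd-titled, -2.32 (SE 0.64, adjusted p 0.0252) in T-DXd-titled and -2.31 (SE 0.43, adjusted p 0.00119) in both. Without PBS replicate 1 these were -1.25, -1.29 and -1.27, all still called, and EREG then had the larger fold change (-1.43, -1.36 and -1.39). With any 1 treated library left out, AREG was no longer called in the comparison of that conjugate alone (adjusted p 0.0769 to 0.104). AREGB, a near-identical copy, is listed at 75480629 to 75490486. It took 3.45% to 3.92% of the counts of both genes in PBS and 0 or 1 counts in treated libraries. The split of reads between them is thus uncertain. How reads that align equally to both were counted is not given in the sources used here. If they were left out, the level of AREG is understated, and summing the counts of both does not restore them. With the counts of both summed, AREG was at -2.35 in both conjugates against PBS.

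EREG (epiregulin, 75230860 to 75254468 on chromosome 4) was the least abundant, at 1.15, 0.663 and 0.712 CPM in PBS, 0.131, 0.257 and 0.380 CPM in the P-DXd-titled and 0.248, 0.336 and 0.213 CPM in the T-DXd-titled replicates. The groups did not overlap, and the counts were 80 to 101 in PBS and 11 to 25 in treated libraries. EREG fell in the P-DXd-titled group (log2 fold change -1.70, SE 0.48, adjusted p 0.0330), in the T-DXd-titled group (-1.65, SE 0.37, adjusted p 0.0131) and in both (-1.68, SE 0.35, adjusted p 0.00209).

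BTC (betacellulin, 75669969 to 75719896 on chromosome 4) was the ligand that rose. It was 9.81, 14.5 and 15.2 CPM in PBS, 27.4, 19.8 and 24.1 CPM in the P-DXd-titled and 18.3, 23.9 and 22.7 CPM in the T-DXd-titled replicates. Each treated library lay above each PBS library. The means were 13.2 ± 2.92 CPM (SD, n = 3), 23.8 ± 3.78 CPM and 21.6 ± 2.94 CPM. BTC rose by a log2 fold change of 0.87 in P-DXd-titled (SE 0.21, adjusted p 0.0186), 0.72 in T-DXd-titled (SE 0.19, adjusted p 0.0243) and 0.79 in both (SE 0.16, adjusted p 0.00222). Without PBS replicate 1 the T-DXd-titled value was 0.55, under the fold minimum.

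EGF itself (chromosome 4, 110834040 to 110933422) was 9.98, 7.67 and 10.7 CPM in PBS, 13.9, 11.4 and 15.8 CPM in the P-DXd-titled and 13.04, 12.8 and 10.4 CPM in the T-DXd-titled replicates. T-DXd-titled replicate 3 lay within the PBS range, and the other treated libraries were above it. EGF was not called, with log2 fold changes of 0.55 (adjusted p 0.0584), 0.35 (adjusted p 0.140) and 0.45 (adjusted p 0.0277, under the fold minimum).

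The feedback inhibitor ERRFI1 (chromosome 1, 8064464 to 8086368) was 189, 209.9 and 261 CPM in PBS, 91.5, 93.0 and 117 CPM in the P-DXd-titled and 95.6, 95.9 and 83.5 CPM in the T-DXd-titled replicates. All treated libraries were well below all PBS libraries. Means were 220.2 ± 37.0 CPM (SD, n = 3) in PBS, 100.4 ± 14.1 CPM and 91.7 ± 7.09 CPM. ERRFI1 fell in the P-DXd-titled group (log2 fold change -1.12, SE 0.16, adjusted p 0.00395), in the T-DXd-titled group (-1.26, SE 0.14, adjusted p 0.00111) and in both (-1.20, SE 0.11, adjusted p 1.83e-05). Like TGFA, it stayed called under each alternative and without each library in these comparisons. The plot of fold changes sets the genes side by side.

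**Figure D2:**
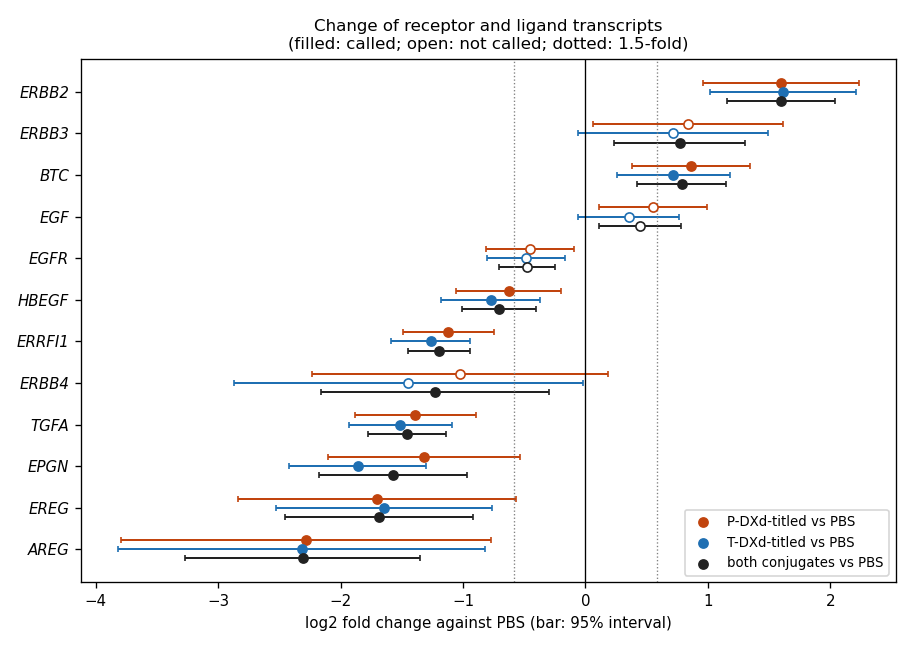
Log2 fold change against PBS with its 95% interval for the 9 genes and for ERBB2, ERBB4 and EPGN, in P-DXd-titled, T-DXd-titled and both conjugates together; filled points are called, open points are not, and dotted lines mark 1.5-fold. AREG, EREG, EPGN, TGFA, ERRFI1 and HBEGF lie to the left of 0 and BTC and ERBB2 to the right in all 3 comparisons, with the widest intervals for AREG.

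The second question was whether the conjugates differed. P-DXd-titled and T-DXd-titled tumors were compared directly, and 0 of the 9 genes were called by edgeR or DESeq2, beside 0.0273% of 14653 genes, and 0 had an unadjusted p under 0.05. The groups overlapped for each of the 9, beside 8.09% of all genes whose groups did not overlap. The differences were small where the transcript was abundant: 0.026 on the log2 scale for EGFR (95% interval -0.17 to 0.22), 0.11 for ERBB3 (-0.055 to 0.27), 0.11 for TGFA (-0.14 to 0.36) and 0.13 for ERRFI1 (-0.094 to 0.36). HBEGF was 0.14 higher in P-DXd-titled libraries (-0.096 to 0.37), BTC 0.14 (-0.16 to 0.43) and EGF 0.19 (-0.12 to 0.49), none past the test. For the low transcripts the intervals were wide, with AREG at 0.024 (-0.72 to 0.77) and EREG at -0.073 (-1.19 to 1.05), so both intervals held differences of 1.5-fold in either direction.

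To compare levels between genes, CPM was divided by gene length in kb (exon union of GENCODE v44), and the order depended on the length used. The counts were not made on this annotation, so levels, order and shares per kb are approximate. By the exon union the order in PBS was ERRFI1 (52.7 ± 8.85 CPM per kb, SD, n = 3), HBEGF (49.3 ± 10.7), TGFA (33.7 ± 8.88), EGFR (33.7 ± 5.60), BTC (4.96 ± 1.1), ERBB3 (4.75 ± 2.11), AREG (2.37 ± 2.12), EGF (1.24 ± 0.207) and EREG (0.147 ± 0.0466). On that length ERRFI1 and HBEGF did not differ beyond their spread, nor did TGFA and EGFR, BTC and ERBB3, or AREG and EGF. The place of AREG is uncertain, since reads shared with AREGB may not have been counted. In treated tumors HBEGF was at 31.6 ± 4.25 CPM per kb in the P-DXd-titled and 28.8 ± 2.67 in the T-DXd-titled xenografts. EGFR and ERRFI1 were at 24.4 ± 2.62 and 24.0 ± 3.38 CPM per kb in the P-DXd-titled and 24.0 ± 1.22 and 21.9 ± 1.70 in the T-DXd-titled xenografts. TGFA was at 12.7 ± 2.31 and 11.8 ± 0.439 CPM per kb. With the length of the MANE transcript, EGFR (54.3 ± 9.01 CPM per kb) stood above TGFA (40.3 ± 10.6) and ERBB3 (9.91 ± 4.39) above BTC (4.96 ± 1.1) in PBS. On that length EGFR, HBEGF and ERRFI1 were at 39.3 ± 4.21, 40.1 ± 5.39 and 32.4 ± 4.55 CPM per kb in the P-DXd-titled and 38.7 ± 1.96, 36.5 ± 3.39 and 29.6 ± 2.29 in the T-DXd-titled tumors. EGFR and HBEGF thus lay within their spread, and in the T-DXd-titled tumors ERRFI1 lay below EGFR beyond it.

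The summed level of the 7 EGFR ligands (EPGN included) was 93.9 ± 17.3 CPM per kb in PBS, 56.5 ± 6.20 in the P-DXd-titled and 51.4 ± 2.46 in the T-DXd-titled xenografts. HBEGF made up 52.4% ± 6.32 (SD, n = 3) of it in PBS and 56.0% ± 5.51 and 55.8% ± 2.73 after treatment, which was within the spread. TGFA made up 35.8% ± 5.17 in PBS and 22.5% ± 2.61 and 23.0% ± 1.4 in treated tumors. BTC made up 5.53% ± 2.11 in PBS and 15.8% ± 1.83 and 15.9% ± 2.47 in treated tumors. The lowest TGFA share in PBS was 30.1% and the highest in treated libraries 24.3%, and the highest BTC share in PBS was 7.58% and the lowest in treated libraries 13.1%, so neither overlapped.

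ERBB2 encodes HER2, the receptor that T-DXd binds. ERBB2 was 63.8, 118 and 132 CPM in PBS, 286, 283 and 371 CPM in the P-DXd-titled and 321, 322 and 318 CPM in the T-DXd-titled replicates. It rose by a log2 fold change of 1.60 in both conjugates together (SE 0.20, adjusted p 9.74e-05). The summed level of the 4 ErbB receptors was 48.8 ± 11.0 CPM per kb (SD, n = 3) in PBS, 63.3 ± 6.45 in the P-DXd-titled and 62.9 ± 1.06 in the T-DXd-titled tumors, and EGFR itself was not called. The shares below are therefore of unequal totals. Per kb, EGFR made up 69.8% ± 4.95 (SD, n = 3) of the 4 ErbB receptors' transcripts in PBS, 38.7% ± 3.33 in the P-DXd-titled and 38.2% ± 1.33 in the T-DXd-titled xenografts. ERBB2 made up 20.3% ± 2.92, 47.9% ± 3.89 and 49.3% ± 1.15, and ERBB3 9.36% ± 2.52, 13.3% ± 0.605 and 12.4% ± 0.521. With the length of the MANE transcript in place of the exon union, EGFR made up 63.0%, 31.4% and 30.8% and ERBB2 25.8%, 54.6% and 56.1%. These shares are of transcripts, and protein was not measured in these files.

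**Figure D3:**
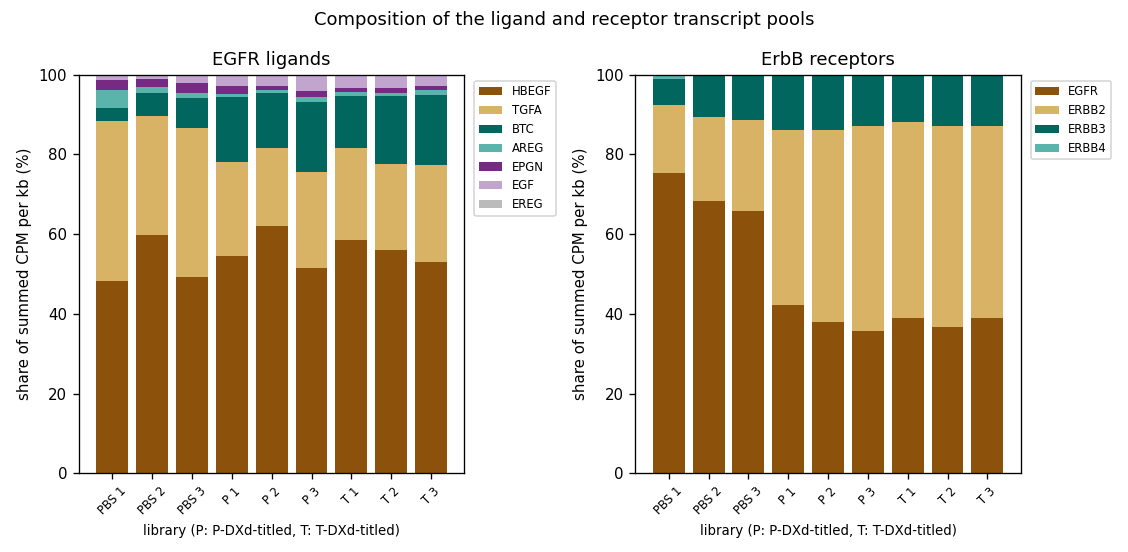
Shares of each gene in the summed CPM per kb of 7 EGFR ligands (left) and of 4 ErbB receptors (right), as stacked bars from 0 to 100% for each of 9 libraries. In treated libraries the BTC band is wider (13.1% at the lowest, against 7.58% at the highest in PBS), the TGFA band is narrower, and the EGFR band of the receptors falls below that of ERBB2.

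Other members of the family moved in mixed directions. Of ERBB2, ERBB4, NRG1, NRG2, NRG4 and EPGN, all 6 tested, 1 rose and 3 fell in P-DXd-titled, 1 rose and 2 fell in T-DXd-titled, and 1 rose and 4 fell in both conjugates against PBS, beside 25.0%, 28.6% and 32.2% of all genes called. EPGN was 9.06, 6.24 and 6.36 CPM in PBS, 4.12, 1.78 and 2.68 CPM in the P-DXd-titled and 1.86, 2.39 and 1.69 CPM in the T-DXd-titled replicates. Its groups did not overlap, and it fell by 1.57 on the log2 scale in both (SE 0.27, adjusted p 0.000724). The neuregulin genes NRG2 (-1.92, adjusted p 0.00514) and NRG4 (-1.23, adjusted p 0.00934) fell with all treated libraries set against PBS. NRG2 encodes a ligand of HER3 and HER4, and NRG4 one of HER4. NRG2 rests on 91 to 167 counts in PBS and on 4 to 37 in treated libraries. NRG4 was not called in T-DXd-titled tumors alone (-1.17, adjusted p 0.0875), and its groups overlapped there and with all treated libraries. NRG1, the neuregulin best known as a ligand of HER3, was at -0.53 (adjusted p 0.342) in both conjugates against PBS and changed sign without PBS replicate 1 (0.097). NRG3 was not listed. ERBB4 was at -1.23 (adjusted p 0.0289), and without PBS replicate 1, in which it was 3.39 times the mean of the other PBS libraries, at -0.38 and not called. Its call was also lost when P-DXd-titled replicate 3 (adjusted p 0.0507) or T-DXd-titled replicate 2 (adjusted p 0.0532) was left out.

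The steps around the receptors were described from lists of known components, as counts in both conjugates against PBS and with the same 32.2% of all genes called. Of 6 genes for ligand shedding, which include the proteases ADAM10 and ADAM17, 0 rose and 1 fell by edgeR, namely FRMD8, which stabilizes the iRhom and ADAM17 complex (-0.62, adjusted p 0.000326, not called without PBS replicate 1, at -0.46). Of the 6, 5 had an adjusted p at or below 0.05 irrespective of fold, beside 55.7% of all genes. Of 11 genes for receptor downregulation, 1 rose and 3 fell. CBL, the ubiquitin ligase that marks active EGFR for degradation, fell by 1.25 on the log2 scale (SE 0.080, adjusted p 3.54e-06), and SH3KBP1, its adaptor CIN85, fell by 1.23 (SE 0.092, adjusted p 4.88e-06). SOCS4 was at -0.71 (adjusted p 0.00136; -0.45 and not called without PBS replicate 1) and LRIG3 at 0.60 (adjusted p 0.00059; 0.52 and not called without it, and 0.56 and not called without P-DXd-titled replicate 1).

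Of 8 adaptors and first signal relays, 2 rose and 1 fell. GAB2, a docking protein that recruits PI3K and SHP2, rose by a log2 fold change of 1.36 (adjusted p 0.000354). GAB1, its relative, was at 0.73 (adjusted p 0.0107; 0.47 and not called without PBS replicate 1). PTPN11, which encodes the SHP2 phosphatase, fell by 0.67 (adjusted p 8.44e-05).

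Of 19 genes that ERK signaling is known to induce, 5 rose and 4 fell in P-DXd-titled and 4 rose and 4 fell in T-DXd-titled tumors. In both conjugates against PBS, 4 rose and 6 fell. Of all genes tested, 25.0%, 28.6% and 32.2% were called in these 3 comparisons. The median log2 fold change of the 19 in both was -0.047, beside -0.014 for all genes tested, so the list did not move one way. EPHA4, an ephrin receptor, rose by 2.73 (adjusted p 3.17e-06). The others that rose were the Sprouty genes SPRY1 (1.35), SPRY2 (1.22) and SPRY4 (0.80), inhibitors of signaling from receptor tyrosine kinases to ERK. PHLDA1 (-1.82, adjusted p 0.000158; -1.21 without PBS replicate 1), the AP-1 subunit gene FOSL1 (-1.58, adjusted p 2.74e-05) and IER3 (-1.13) fell. EGR1 (-0.90) and SPRED3 (-1.14) also fell, as did DUSP4 (-0.88), which was at -0.19 and not called without PBS replicate 1. EGR1 was at -0.56 and not called without PBS replicate 3. The Sprouty genes, IER3, EGR1, SPRED3, DUSP4, LRIG3, NRG1, NRG2 and NRG4 were singled out after their values were seen.

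On chromosome 4, EPGN, EREG, AREG, AREGB and BTC lay in this order within 546 kb, as the tables list them. EPGN, EREG and AREG are direct neighbors among listed genes, and all 3 fell in both conjugates against PBS. BTC, whose listed start lies 359.1 kb beyond that of AREG, rose. The listed start of PARM1, not a ligand, lies 188 kb beyond that of BTC. PARM1 fell by 2.33 (adjusted p 0.000551), so falling genes lay on either side of BTC. A listed start is the lower coordinate of a gene. For BTC, on the minus strand, it is the end away from the promoter, so these distances are not between promoters. AREGB did not pass the filter on low counts. No listed gene starts within 200 kb of the start of EGFR. Of 21 listed genes that start within that distance of ERBB3, 4 were called, beside 32.2% of all genes: ZC3H10 was higher (0.85), and CDK2 (-1.38), PA2G4 (-0.74) and DGKA (-0.73) were lower. Without PBS replicate 1, PA2G4 was at -0.50 and not called.

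**Figure D4:**
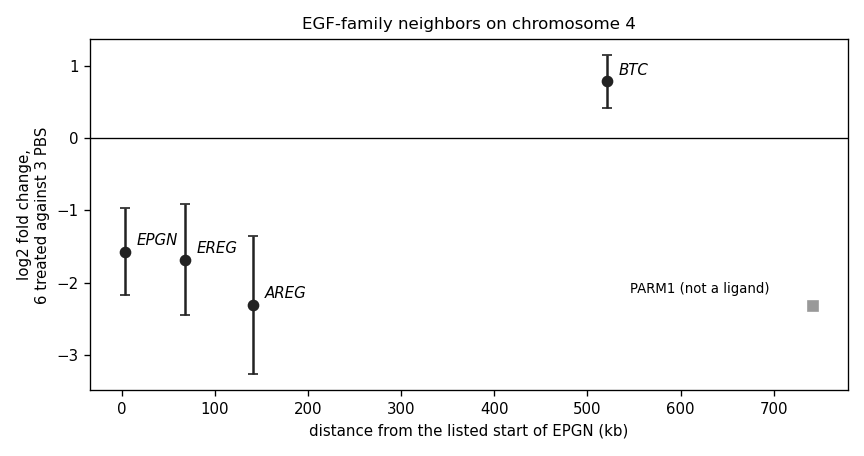
Log2 fold change of 6 treated against 3 PBS libraries (vertical axis, with 95% intervals for the ligands) by distance of each gene's middle from the listed start of EPGN (horizontal axis, kb). EPGN, EREG and AREG lie below 0 at the left, BTC lies above 0 at 0.79, and PARM1, drawn in grey without an interval, lies at -2.33.

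The genes whose log2 CPM followed each member most closely were ranked by Pearson r over the 9 libraries, as a description. These libraries share the split between PBS and treated tumors and its difference in depth, so high values of r are common. ERBB3 was followed by BANK1 (r = 0.998), ARL6IP5 (0.997) and FAM129A (0.996), and TGFA by TLL1 (0.998), FLVCR1 (0.996) and TCHP (0.996). EGFR was followed by ELF4 (0.994), BHLHE40 (0.990) and ALDH1A3 (0.990), and AREG, in which PBS replicate 1 is the extreme point, by MEN1 (0.993), PDCD11 (0.992) and PARP2 (0.992). For BTC these were TMEM62 (0.992), TMED4 (0.988) and RCN1 (0.979), for ERRFI1 UGGT1 (0.987), HEPHL1 (0.987) and BNIP3 (0.986), and for EREG MTFP1 (0.979), PPIL2 (0.974) and OGG1 (0.972). HBEGF was followed by MTERFD3 (0.966), TTYH2 (0.965) and LSM11 (0.965). EGF had the least close followers, ZNF19 (0.937), MARVELD2 (0.937) and G3BP2 (0.936). None of the 9 genes was among the 3 closest of another.

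PBS replicate 1 had the highest TGFA, AREG and EREG and the lowest EGFR, ERBB3, BTC and ERRFI1 of the PBS libraries. Relative to the mean of the other PBS libraries it was 1.54 times for TGFA, 1.67 times for EREG, 0.738 times for EGFR, 0.662 times for BTC and 0.393 times for ERBB3. For TGFA, AREG, EREG, ERBB3 and BTC it thus lay farther from the treated libraries than the other PBS libraries did, and for EGFR and ERRFI1 nearer to them. Among the 9 genes, the coefficient of variation in PBS was highest for AREG (89.5%) and ERBB3 (44.3%) and lowest for EGFR (16.6%).

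**Figure D5:**
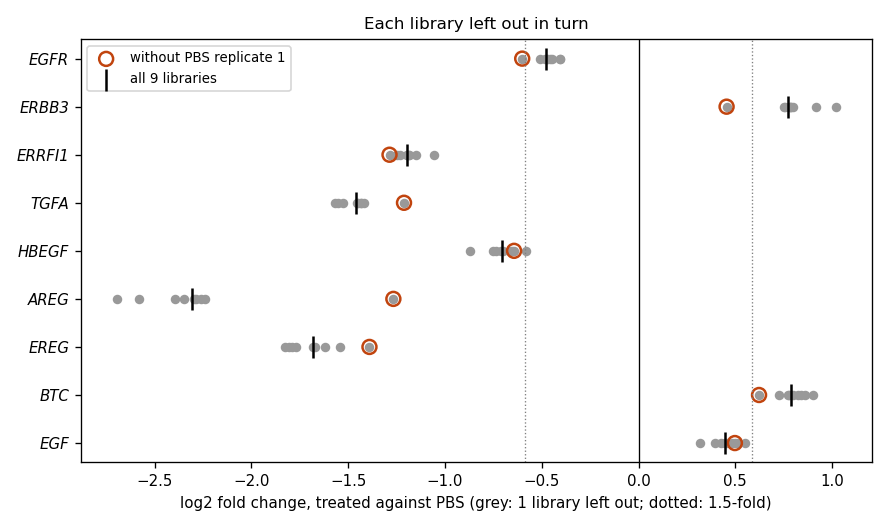
Log2 fold change of treated against PBS libraries for the 9 genes (horizontal axis) with all 9 libraries (black bars) and with each library left out in turn (grey points); orange circles are without PBS replicate 1 and dotted lines mark 1.5-fold. AREG moves from -2.31 to -1.27 and ERBB3 from 0.77 to 0.45 without PBS replicate 1, and no gene crosses 0.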

How the data were processed

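RNA-Seq libraries of 9 PC3 xenografts, 3 per group, were used. Per the study's methods and the labels, the authors used Cutadapt for trimming, STAR for alignment and featureCounts for counting per gene. The deposited tables hold these raw counts, with no normalization, and the PBS counts of the 2 tables (16098 and 16114 genes) were checked and are identical for the 16008 shared genes. Whether mouse reads were removed or strand was used is not given in the sources used here. The methods name GRCh38, but listed coordinates do not match it and are given as listed; promoter coordinates are GRCh38.p14. The number of count columns left unused was 0. Total counts per library were 54481702 to 125538606; where nothing says that libraries came from separate animals beyond their animal codes, p-values measure the spread between these libraries.

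Counts were tested with edgeR 4.0.16 in R 4.3.3 (TMM, filterByExpr, two-sided quasi-likelihood F test, Benjamini-Hochberg over all genes tested). Each conjugate was fitted with PBS, and with the other, on 6 libraries, and all treated with PBS on 9. Levels are CPM on TMM-adjusted library sizes. Alternatives were DESeq2 1.42.0, RLE and upper-quartile factors, no filter, a minimum of 10 counts in every library, calls without the fold minimum, glmTreat, 1 fit of 3 groups over 9 libraries, a block on the animal code's digit and each library left out. Summing AREG and AREGB was chosen after seeing the data. The fits were tested on simulated data. The 9 genes and all lists were chosen with earlier results of these data known. Named were all 9 genes, ERBB2 and ERBB4, the called counts of each list with up to 3 called genes of a mean count of at least 100 and the largest change, the 3 genes closest in pattern to each member (prior count 2), and listed neighbors.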

Additional observations from a re-analysis of the deposited data

Results flagged for a closer look

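In the 6 treated libraries, ERRFI1 was set apart in 1 library: P-DXd-titled replicate 3, at 117 CPM, lay above the others, which ranged from 83.5 to 95.9 CPM. Its gap to the nearest library was 0.626 of the range of the 6, just above the critical value of Dixon's test. Of the 9 genes tested in this way it was the 1 that passed, and chance passes about 1 in 20 groups. The library was still below every PBS library (189 CPM at the lowest), and ERRFI1 stayed called without it.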

How the results depend on the processing

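The count of the 9 genes called moved most under glmTreat, which tests against 1.5-fold: 2 in P-DXd-titled, 2 in T-DXd-titled and 4 in both conjugates against PBS. With each library left out in turn, the counts were 2 to 7, 2 to 6 and 6 to 7. The 2 genes left at the low end, without P-DXd-titled replicate 1 or 3 or T-DXd-titled replicate 3, were TGFA and ERRFI1, and 3 were called without P-DXd-titled replicate 2. No member's change against PBS changed sign under any alternative listed above. Without PBS replicate 1, NRG1 changed sign in T-DXd-titled (-0.50 to 0.39 over left-out libraries) and in both conjugates against PBS (-0.80 to 0.097). DESeq2 and the other scalings, filters and fits called 6 or 7 members in each comparison with PBS, except that with no fold minimum 9 were called in both conjugates against PBS, and that the block called 5 in each conjugate's own comparison.

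The replicate block on the digit of the animal code called 5, 5 and 7 members, with AREG lost in P-DXd-titled (adjusted p 0.0613) and T-DXd-titled (adjusted p 0.0980) xenografts. Libraries of the same digit deviated from their group means with correlations of -0.11 to 0.11, so the digit was not taken to pair them. Between the conjugates, 0 members were called in every setting. Their small differences changed sign for EREG under the block (0.062), and with a library left out for EGFR (-0.044 to 0.11 over all settings), AREG (-0.23 to 0.19), EREG (-0.49 to 0.27) and TGFA (-0.030 to 0.23). Depth limited NRG2 (4 to 37 counts), EREG (11 to 25 counts), NRG1 (11 to 33 counts) and AREG (32 to 69 counts) in treated libraries.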
